A study of Mus musculus with 14 samples.

Results

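The normal-looking duodenum of Lrig1-null mice was compared with the duodenum of wildtype mice. Of the 14 arrays in the study, 8 were compared: the 5 titled as adjacent normal tissue of null mice and the 3 titled as wildtype controls. The null genotype is given as Lrig1-CreERT2/CreERT2 (Lrig1-/-), in which both Lrig1 copies carry the CreERT2 insertion, and the wildtype mice carry none. Both groups are labelled as proximal duodenum, with normal duodenal epithelium as the tissue, and both come from mice of 129S7/SvEv and C57/BL6 background. The mice were age-matched, with no age stated, and no treatment is given for either group. Each array is a separate mouse. The null tissue came from mice that already bore a duodenal adenoma, so the genotype and the presence of a tumor in the same gut cannot be told apart here. The other 6 arrays are tumors, which entered the fit only to estimate the spread of each gene.

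LRIG1 is a transmembrane protein with leucine-rich repeats and immunoglobulin domains that binds ErbB receptors and promotes their removal from the cell surface. ErbB receptors bind EGF-family ligands and signal largely through ERK, a kinase that drives growth programs in crypts. In the intestine Lrig1 is expressed in crypt stem and progenitor cells, and mice without it develop duodenal adenomas. Its relatives Lrig2 and Lrig3 share the domain layout.

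In the fit reported, 0 of 19938 genes differed between adjacent null tissue and wildtype duodenum at an adjusted p below 0.05, which is 0.0% of the genes tested. This fit, limma with Benjamini-Hochberg adjustment over all genes, gave Lrig1 the smallest p and every other gene an adjusted p of 0.998 or more. At an unadjusted p below 0.05 there were 559 genes, 2.8% of those tested, with 253 higher (1.27%) and 306 lower (1.53%) in null tissue. The values of the 3 wildtype and 5 adjacent arrays did not overlap for 422 genes (2.12%), of which 189 (0.948%) were higher and 233 (1.17%) lower in null tissue. For 94.4% of genes (18820) the 95% interval of the difference lay within 2-fold either way, so for these a larger change was outside the interval. The unadjusted count was 1745 (8.75%) without wildtype replicate 1, 1115 without wildtype replicate 2 and 366 without adjacent replicate 4, and in each of these 0 genes passed the adjustment.

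Several arrays stood apart in ways that cut across genotype. Genes of pancreatic acinar cells, which make digestive enzymes, had list means of 13.94 and 13.47 in wildtype replicates 1 and 3, and of 13.25 and 14.13 in adjacent replicates 1 and 2, on the log2 scale. The other 4 arrays lay between 7.52 and 7.73. The 4 arrays with acinar transcripts were high in S100g, which carries calcium through proximal enterocytes, at 13.44 to 13.74 against 7.86 to 9.25. They were low in Enpp7, an alkaline sphingomyelinase more typical of jejunum, at 6.77 to 8.86 against 11.90 to 13.28. Acinar transcripts were therefore present in 2 of 3 wildtype and 2 of 5 adjacent arrays, along with a more proximal expression pattern. In a fit of the 8 arrays with this split as a term, 168 genes (0.843%) differed across it at an adjusted p below 0.05. Between genotypes 0 genes passed in that fit. The split was drawn from the acinar genes of these same arrays, and those genes were among the ones tested. The 168 therefore describes the split and is not a test to set beside the genotype count.

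Wildtype replicate 1 differed from the other 7 arrays in further respects. Genes of gastric surface (pit) cells had a list mean of 12.62 in it, 7.11 and 7.90 in the other wildtype arrays and 6.83 to 8.66 in adjacent tissue. It was also the highest of the 8 arrays in the lists of Brunner gland, mast cell, tuft cell and regenerative epithelium genes and the lowest in the absorptive enterocyte list. On the first principal component of the 8 arrays (49.3% of the variance) it lay at 57.99, with the others between -28.68 and 28.23. Results below that this array moves by over 1.5 times are also given without it. With it left out, the wildtype group is 2 mice, one of them with acinar transcripts. The first letter of the mouse ID, whose meaning the labels do not give, is F for wildtype replicate 1 and adjacent replicates 1 and 2 and B for the other 5.

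**Figure D1:**
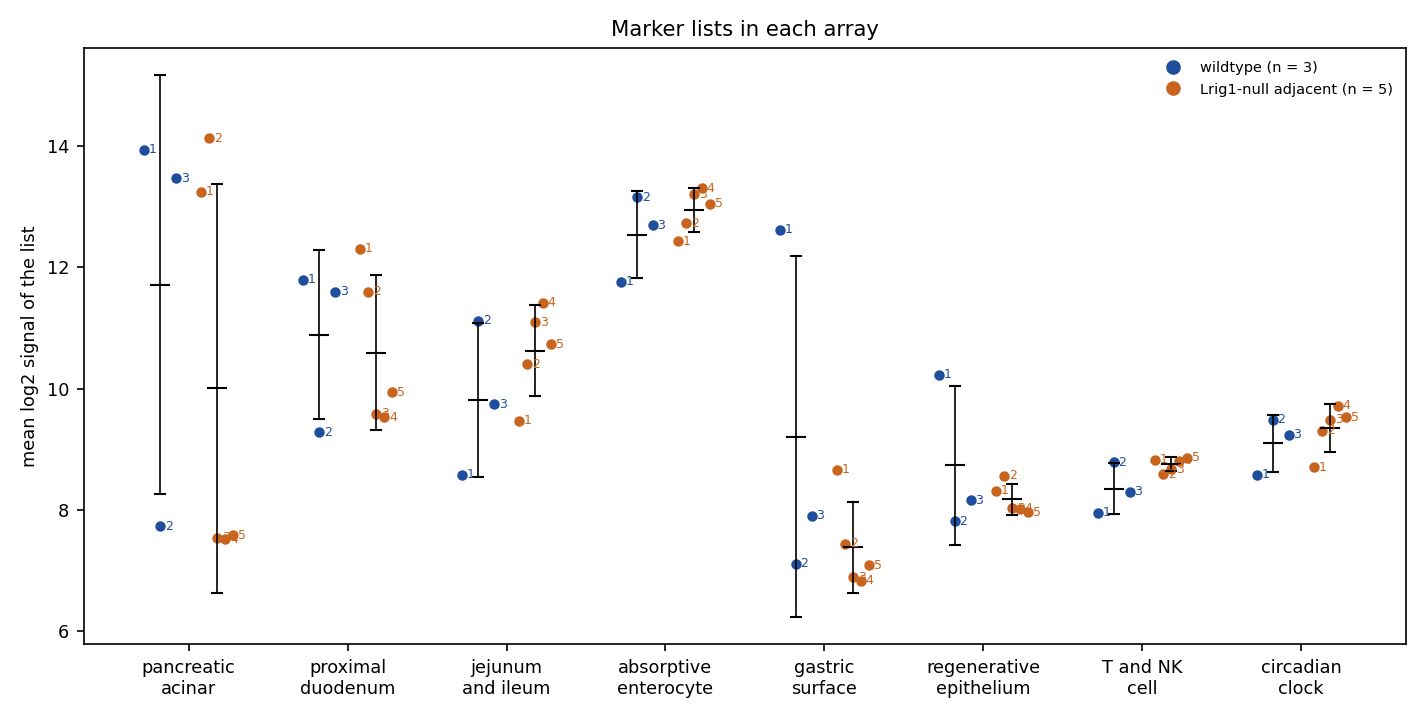
Mean log2 signal (vertical axis) of 8 marker gene lists in each of the 8 arrays, with points numbered by replicate, horizontal marks at group means and bars of 1 SD. The acinar and proximal duodenum lists split the arrays across genotype, and wildtype replicate 1 stands apart in the gastric surface and regenerative lists.

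Labelled tissue was checked against marker genes. The brush-border genes Vil1 and Alpi, chosen after their values were seen, spanned 12.59 to 13.40 and 13.54 to 14.04 over the 8 arrays. The mean of the whole absorptive enterocyte list spanned 11.76, in wildtype replicate 1, to 13.31, and its member Lct 9.66 to 13.58. Even epithelial content over the arrays is therefore not shown by these 2 genes. Smooth muscle genes were read in the same arrays, with Des at 9.92 to 12.08 and Myh11, also chosen after its values were seen, at 9.11 to 10.89. Xist spanned 11.46 to 12.01 and the Y-linked gene Eif2s3y 3.90 to 4.15, with no array apart in either. In such bulk tissue, fewer cells of a type and less RNA per cell cannot be told apart.

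Lrig1, read by transcript cluster 10546510, was lower in every null array than in every wildtype array. The wildtype values were 9.54, 9.34 and 8.22, and the adjacent values were 7.14, 7.40, 7.31, 7.21 and 6.95. The 5 null arrays lay close together, while wildtype replicate 3 lay well below the other wildtype arrays. The null values still lay above the olfactory and vomeronasal receptor medians used below as a floor (4.94 to 5.49). The 6 tumors, also titled as Lrig1-null, read 7.65 to 8.54, a range that holds wildtype replicate 3. The source of the signal left in null tissue was not tested. Means were 9.03 ± 0.71 (SD, n = 3) in wildtype and 7.20 ± 0.17 (SD, n = 5) in adjacent tissue. The fitted difference, which weighs the shared mice of the tumor arrays, was -1.84 ± 0.25 (SE), with a 95% interval of -2.37 to -1.31. The limma adjusted p was 0.0511, just above the threshold. The exact two-sided permutation p over the 8 arrays was 0.0357, the smallest that 3 arrays against 5 allow. Any gene whose groups do not overlap (422 genes, 2.12%) has this permutation p, so it only restates the lack of overlap. Without wildtype replicate 3 the difference was -2.25 and the adjusted p 0.000283, and without wildtype replicate 1 it was -1.59 with an adjusted p of 0.508. Over all 24 alternatives the difference ran from -2.29 to -1.59 and the adjusted p from 0.000283 to 1.0, with 7 alternatives past the threshold.

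Because the Lrig1 groups did not overlap, any split of these arrays must give a lower value in null tissue. The values within strata therefore describe the size of the difference and are not further tests of its direction. Among arrays with acinar transcripts the difference was -1.65 ± 0.34 (SE), and among those without it was -2.17 ± 0.39. The second value rests on 1 wildtype array against 3 null arrays, so its SE assumes that this array varies like the others, and whether the effect differs between the strata is not read from it. Within ID letter B it was -1.63 ± 0.30.

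The relatives and chromosomal neighbours of Lrig1 showed no such separation. Lrig2 lay at 8.49, 7.96 and 8.02 in wildtype and 8.62, 8.09, 8.24, 8.30 and 7.92 in null tissue, a difference of 0.10 ± 0.17 (SE), or 0.27 without wildtype replicate 1. Lrig3 lay at 9.04, 10.02 and 9.51 in wildtype and 9.59, 9.33, 10.08, 10.35 and 9.96 in null tissue, a difference of 0.33 ± 0.24, or 0.09 without that array. In both genes the groups overlapped. Of the 20 measured genes next to Lrig1 in gene order (10 on each side, by the GRCm38.p6 order), none had groups that did not overlap, the differences ran from -0.20 to 0.19, and all 20 intervals lay within 2-fold. The smallest unadjusted p among them was 0.0804 by limma.

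No difference was found in the transcripts of the receptors that LRIG1 binds, and receptor protein was not measured. Of 6 receptors measured (Egfr, Erbb2, Erbb3, Erbb4, Met and Ret), 0 reached an unadjusted p below 0.05 and all 6 intervals lay within 2-fold. Egfr read 9.85, 9.03 and 8.59 in wildtype and 9.17, 8.89, 9.20, 9.14 and 8.98 in null tissue. All 5 null values lay inside the wildtype range, and the difference was -0.08 ± 0.21 (SE), with a 95% interval of -0.52 to 0.37. Without wildtype replicate 1 it was 0.27. Erbb3, the kinase-poor partner receptor, differed by 0.19 ± 0.16, or 0.06 without that array, and Erbb2 by 0.00 ± 0.13, or -0.05. The median over the 6 receptors was -0.02, or 0.04 without that array, against -0.0092 over all genes.

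**Figure D2:**
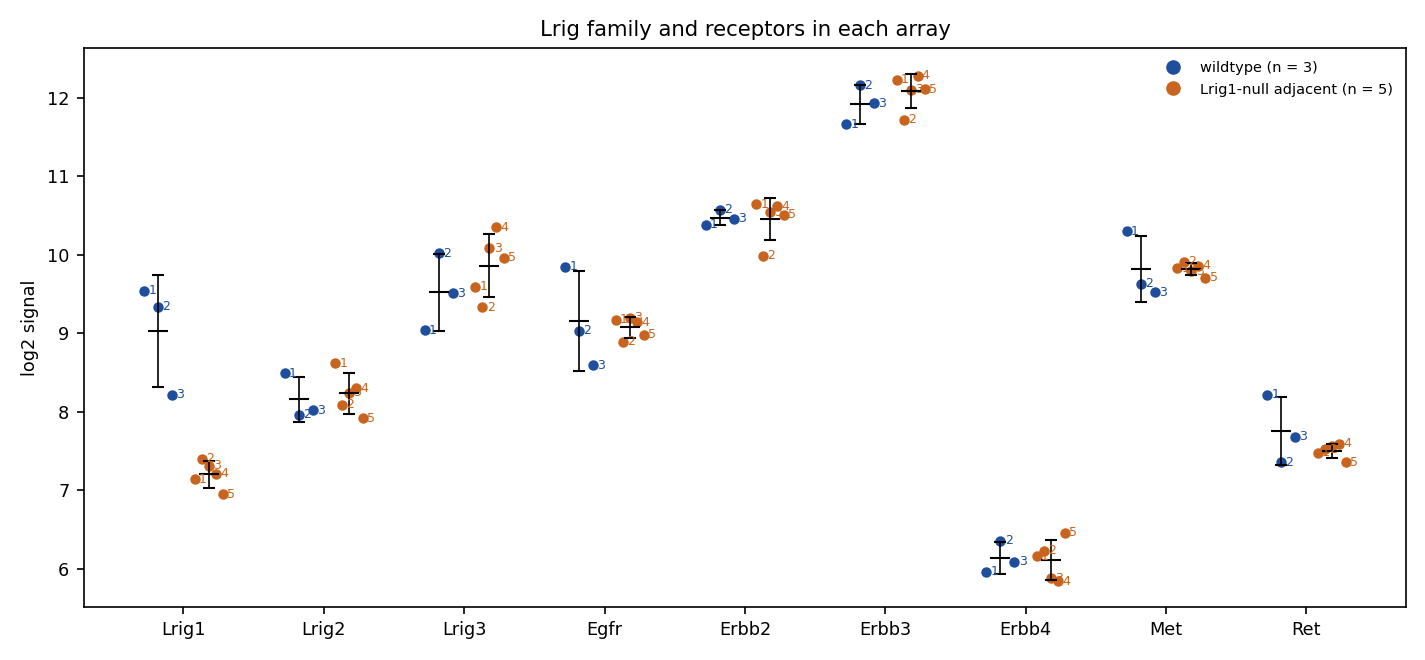
Log2 signal (vertical axis) of Lrig1, Lrig2, Lrig3 and 6 receptors in each array, numbered by replicate, with group means as horizontal marks and bars of 1 SD. Lrig1 alone of these 9 genes has groups that do not overlap; the null arrays lie between 6.95 and 7.40.

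Among the ErbB ligands, 9 of 10 measured were lower and 1 higher in null tissue, with a median difference of -0.07 and 2 at an unadjusted p below 0.05 (against 2.8% of all genes). These were Tgfa, the ligand TGF-alpha, and Epgn, epigen. Tgfa read 9.58, 9.04 and 9.14 in wildtype and 9.04, 8.84, 8.91, 9.02 and 8.95 in null tissue, a difference of -0.30 ± 0.12 (SE; limma unadjusted p = 0.0274). Its null values were at or below the lowest wildtype value, and without wildtype replicate 1 the difference was -0.14. Epgn differed by -0.35 ± 0.16, or -0.19 without that array. Of the ligands, 1 had groups that did not overlap (2.12% of all genes). Without wildtype replicate 1 the median over the ligands was -0.01, and 0 of 10 reached an unadjusted p below 0.05. Egf was high in adjacent replicate 2, at 8.82, and at 6.62 to 6.98 in the other null arrays.

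Of 10 negative regulators of ErbB receptors, 9 had a difference above 0, with a median of 0.13, or 0.14 without wildtype replicate 1. All genes in bins 7 to 9 of 10 by signal level, where bin 10 is the brightest, had medians of 0.059 to 0.075, or 0.13 to 0.146 without that array. Cblb, a ubiquitin ligase that marks receptors for degradation, was the 1 member at an unadjusted p below 0.05 (2.8% of all genes) and the 1 without overlap (2.12%). It read 9.49, 9.38 and 9.19 in wildtype and 9.80, 9.56, 9.76, 9.80 and 9.63 in null tissue. The difference was 0.35 ± 0.13 (SE; limma unadjusted p = 0.0168), or 0.42 without wildtype replicate 1. Cbl differed by 0.16 ± 0.17 and Rnf41, which acts on Erbb3, by 0.14 ± 0.12.

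Genes that respond to ERK or feed back on it showed no common direction. Of 18 members 8 were higher and 10 lower in null tissue, with a median of -0.11, or 0.06 without wildtype replicate 1. Phlda1, a target of ERK, was the 1 of 18 members at an unadjusted p below 0.05, a share near the 2.8% of all genes for a list of this size, and it was lower. Its wildtype values were 10.83, 9.09 and 8.60 and its null values 8.55, 7.84, 8.66, 8.68 and 8.30, a difference of -1.10 ± 0.39 (SE; limma unadjusted p = 0.0133). Wildtype replicate 1 was the highest, and without it the difference was -0.44. Dusp4 differed by -0.47 ± 0.25 and Ier3 by -0.45 ± 0.23, and by -0.13 and -0.10 without that array.

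The medians of crypt gene lists lay close to 0. The crypt stem cell list (15 genes) had a median difference of 0.00, Wnt targets (12 genes) -0.03 and proliferation genes (19 genes) 0.06, and in these 3 lists 0 genes reached an unadjusted p below 0.05. All 19 proliferation intervals lay within 2-fold. Lgr5, a Wnt-dependent stem cell receptor, read 7.48, 8.59 and 7.90 in wildtype and 8.46, 8.29, 8.77, 8.49 and 8.40 in null tissue, a difference of 0.52 ± 0.32 (SE), or 0.26 without wildtype replicate 1. Sox9, a crypt transcription factor, differed by -0.50 ± 0.30, and Cd44 by -0.47 ± 0.34. Without that array these were -0.01 and 0.10, and the list medians -0.01 (stem cell), -0.06 (Wnt) and 0.15 (proliferation). All genes in bin 8 of 10 by signal level, which holds the proliferation list means of 9.21 and 9.27, had a median of 0.146 without that array.

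The genes of smallest p whose groups did not overlap, 10 in each direction, spanned 0.37 to 0.84 for those higher in null tissue and 0.38 to 1.84 log2 units for those lower. Their unadjusted p ran from 0.000111 to 0.00379 and from 2.56e-06 to 0.00419. They were picked for this separation from 19938 genes, so the values describe them and are not independent tests. All 20 kept their direction and an unadjusted p below 0.05 without wildtype replicate 1 (8.75% of all genes reach this there) and with a term for acinar transcripts (2.81%). Both fits reuse the values by which the genes were picked, and groups without overlap largely fix the direction. The shares over all genes are therefore no yardstick for these 20.

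Among the higher genes, Il22ra2, the secreted receptor that binds and blocks IL-22, read 5.41, 5.78 and 5.39 in wildtype and 6.46, 6.10, 6.34, 6.06 and 6.44 in null tissue, a difference of 0.75 ± 0.14 (SE). It had the second smallest p of all genes and was the 1 of the 10 higher genes among the dimmest 25% of genes. Tigit, an inhibitory receptor of T and NK cells, read 8.60, 8.65 and 8.58 in wildtype and 8.93 to 9.09 in the 5 null arrays, a difference of 0.41 ± 0.11. The wildtype values lay close together there, and all null values lay above them. Sh2d1b1, an adaptor of NK cell receptors, read 6.83, 6.57 and 6.03 against 7.56, 7.21, 7.35, 7.44 and 6.89 and differed by 0.84 ± 0.24. Dnase1l3, a nuclease secreted by macrophages and dendritic cells, differed by 0.74 ± 0.18, and Nfkbia, an inhibitor of NF-kappaB, by 0.37 ± 0.10. The other higher genes were Prkch (a protein kinase C), Plcxd2, Ednrb (an endothelin receptor), Slc25a13 (a mitochondrial carrier) and Cpeb3 (an RNA-binding protein), at 0.42 to 0.72.

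The lower genes, after Lrig1, were smaller in size. Fam83a, a protein linked to signalling below EGFR, read 7.56, 7.39 and 8.33 in wildtype and 7.05, 6.88, 7.02, 6.82 and 7.31 in null tissue, a difference of -0.75 ± 0.21 (SE). Its groups came closest at wildtype replicate 2 and adjacent replicate 5. Oas1a, an interferon-induced synthetase, differed by -0.50 ± 0.13, Sprr1b, a cornified envelope protein, by -0.56 ± 0.14, and the aspartic protease Asprv1 by -0.45 ± 0.11. Drd3 differed by -0.51 ± 0.15, or -0.32 without wildtype replicate 1. Trpc6 and S100a13 differed by -0.38 (S100a13 by -0.24 without that array), and Crisp2 and Chst9 by -0.39. Of the 10 lower genes, 3 were among the dimmest 25% of genes: Trpc6, Crisp2 and Chst9. Crisp2 read 4.56 to 5.23 and Chst9 4.13 to 4.78 over the 8 arrays. In each array both lay below the median of the olfactory and vomeronasal receptor genes given below.

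**Figure D3:**
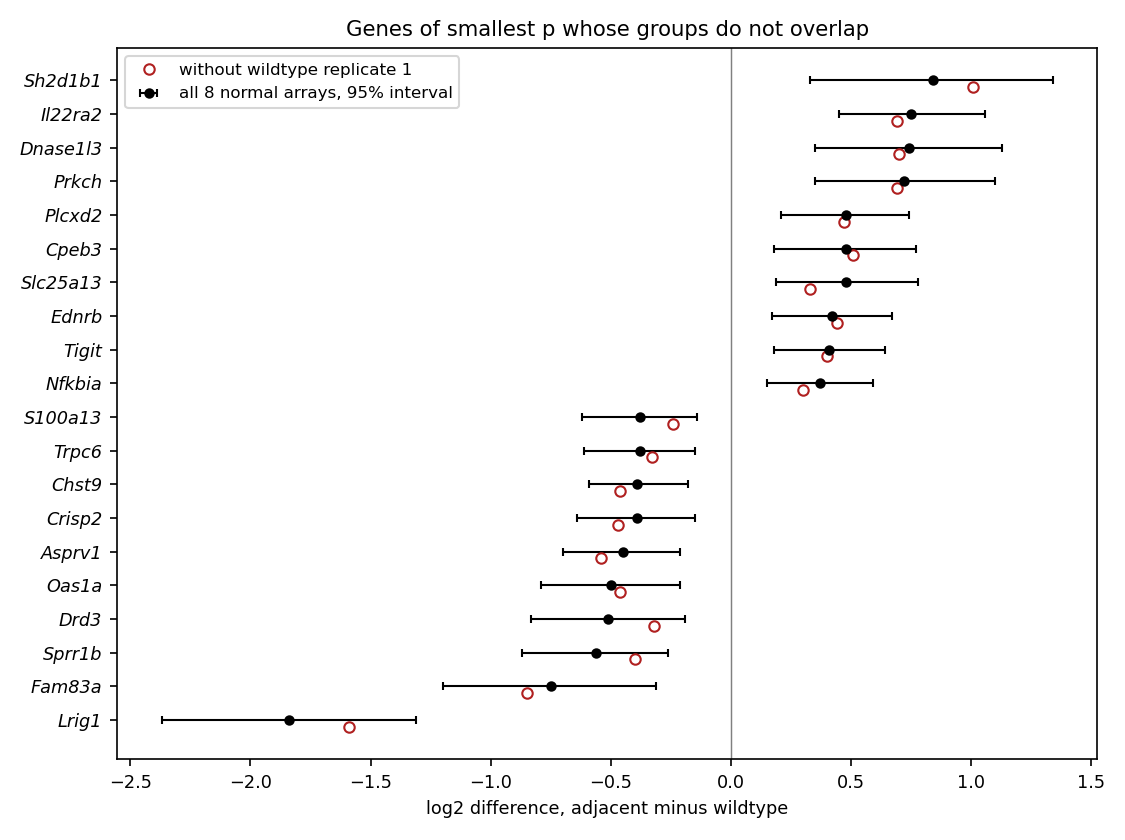
Log2 difference of adjacent null minus wildtype tissue (horizontal axis) for the 20 genes of smallest p whose groups do not overlap, with 95% intervals (filled) and the value without wildtype replicate 1 (open). Lrig1 lies at -1.84 and the other 19 between -0.75 and 0.84.

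The count of separated genes depended on the signal level. Of the genes lower in null tissue with no overlap, 60.5% (141) were among the dimmest 25% of genes, against 11.6% (22) of the higher ones. Across 10 equal bins of genes by mean level, the median difference went from -0.093 in the dimmest bin to 0.075 in bin 8, and after quantile normalization the bins ran from -0.004 to 0.019. Of the separated genes 55.2% were lower in null tissue, 49.4% after quantile normalization and 46.3% after centring arrays on their medians. Olfactory and vomeronasal receptor genes, 1194 in all and used here as a floor, had array medians of 5.37 and 5.49 in wildtype replicates 2 and 3 and 4.94 to 5.15 in the other 6 arrays. The part of this floor in the directions of dim genes was not tested.

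**Figure D4:**
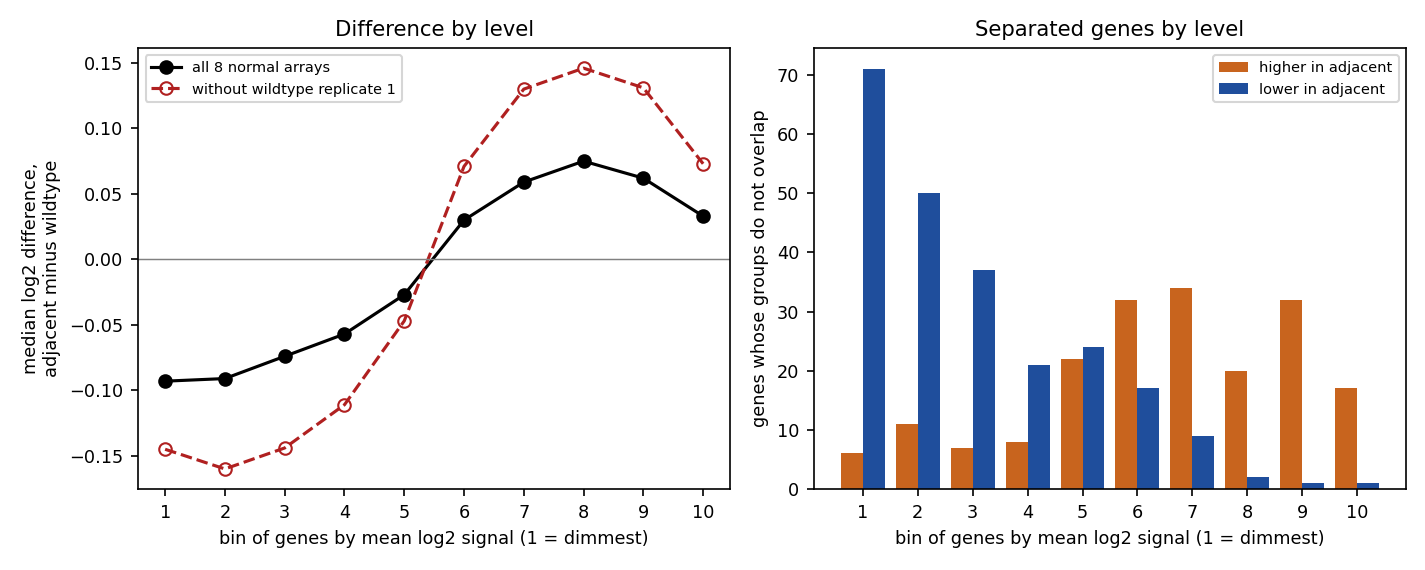
Left, median log2 difference of adjacent minus wildtype tissue by bin of genes from dimmest (1) to brightest (10), for all 8 arrays and without wildtype replicate 1. Right, number of genes in each bin whose groups do not overlap; lower genes concentrate in the dim bins, with 71 in bin 1, and higher genes in the brighter ones.

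Absorptive genes read higher in null tissue by the median, and wildtype replicate 1 read lowest. Of 18 absorptive enterocyte genes 17 were higher, with a median of 0.38, or 0.04 without that array. Lct, the brush-border lactase, was the 1 of 18 members at an unadjusted p below 0.05, against 2.8% of all genes. It read 9.66, 13.37 and 11.97 in wildtype and 12.30, 12.54, 13.39, 13.58 and 13.36 in null tissue. The difference was 1.34 ± 0.60 (SE; limma unadjusted p = 0.0430) and 0.34 without that array. Fat absorption and lipoprotein genes had a median of 0.27, or -0.01 without it. Cd36, a fatty acid uptake receptor, read 8.37, 11.04 and 10.31 against 10.83, 10.61, 11.22, 11.56 and 10.88, a difference of 1.16 ± 0.56, or 0.39 without it. Jejunum and ileum genes had a median of 0.62, or 0.05 without it, and 0.22 with a term for acinar transcripts. The position of the piece of gut along the duodenum was not measured apart from these genes, and its part in the differences was not tested.

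Some genes of the response to fasting read higher in null tissue. Of 13 fasting and fatty acid oxidation genes 2 reached an unadjusted p below 0.05, both higher (15.4% of the list against 1.27% of all genes), and the median was 0.09. Without wildtype replicate 1, 0 of the 13 reached it, against 8.75% of all genes, and the median was 0.02. Pdk4, a kinase that switches off pyruvate oxidation, read 9.65, 9.89 and 9.65 in wildtype and 10.43, 10.96, 10.75, 11.30 and 11.30 in null tissue. Every null array lay above every wildtype array, and the difference was 1.23 ± 0.53 (SE; limma unadjusted p = 0.0355), or 1.19 without wildtype replicate 1. Angptl4, an inhibitor of lipoprotein lipase, read 7.39, 8.30 and 9.22 against 8.63, 10.13, 9.02, 9.87 and 10.08, with overlapping groups, and differed by 1.26 ± 0.41. Without wildtype replicate 1 that difference was 0.80. Ppara, the transcription factor above many of these genes, differed by 0.38 ± 0.35, and Cpt1a, the carnitine shuttle enzyme, by -0.17 ± 0.14. Without that array these were -0.10 and -0.01.

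Ces1g, a carboxylesterase, was the 1 of 18 xenobiotic metabolism genes at an unadjusted p below 0.05, a share near the 2.8% of all genes for a list of this size. It read 8.06, 9.25 and 8.91 in wildtype and 9.49, 9.83, 9.62, 10.27 and 10.20 in null tissue, with no overlap and a difference of 1.17 ± 0.38 (SE; limma unadjusted p = 0.00759). Leaving out wildtype replicate 1 gave a difference of 0.83 and an unadjusted p of 0.0554 by limma. Chosen after their values were seen were G6pc, the last enzyme of glucose release, Tsc22d3, a gene induced by glucocorticoids, and Aqp8, a water channel. G6pc read 9.02, 10.25 and 9.55 in wildtype and 11.30, 10.16, 11.78, 11.91 and 11.68 in null tissue, a difference of 1.87 ± 0.64. Adjacent replicate 2 was the exception there, just under the highest wildtype value. Aqp8 read 7.74, 6.98 and 7.10 against 9.35, 9.36, 8.95, 7.26 and 8.31 and differed by 1.36 ± 0.40, with adjacent replicate 4 inside the wildtype range. Tsc22d3 differed by 0.66 ± 0.29. Feeding and the time of sampling are not given in the labels, and their part was not tested. The clock genes Dbp and Arntl, also chosen after their values were seen, separated wildtype replicate 1 and adjacent replicate 1 from the other 6 arrays. Dbp read 8.39 and 8.31 in these and 10.79 to 11.44 in the others, and Arntl was higher in both, at up to 9.26, than in the others at 7.23 to 7.94.

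Genes of T and NK cells were higher in null tissue for 9 of 12 members, with a median of 0.51 and 5 at an unadjusted p below 0.05, all higher (41.7% of the list, against 1.27% of all genes). The list mean was 7.95, 8.79 and 8.30 in the wildtype arrays and 8.83, 8.59, 8.67, 8.81 and 8.86 in the null arrays, so wildtype replicate 2 was at the level of null tissue. Cd3g, a chain of the T cell receptor complex, read 9.40, 10.48 and 9.37 against 10.78, 10.23, 10.91, 10.76 and 10.38, a difference of 0.94 ± 0.40 (SE; limma unadjusted p = 0.0327). Cd3e differed by 0.73 ± 0.30, Cd3d by 0.49 ± 0.17, and Gzmb, a cytotoxic granule protease, by 0.66 ± 0.27. When wildtype replicate 1 was left out, Cd3e differed by 0.40 and Gzmb by 0.39, and the list median was 0.39. In that fit 0 of 12 members were higher and 1 was lower at an unadjusted p below 0.05, against 8.75% of all genes in either direction. Cd3g, Cd3e, Cd3d and Gzmb, all among the 9 higher members, each had overlapping groups.

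Myeloid and interferon genes were mixed. Macrophage and dendritic cell genes were higher for 13 of 14 members with a median of 0.21, and 0 reached an unadjusted p below 0.05. Without wildtype replicate 1 the median was 0.20 and 3 of 14 reached it, all higher, against 8.75% of all genes in either direction. All genes in bin 7 of 10 by signal level, which holds the list means of 8.34 and 8.55, had a median of 0.059, or 0.13 without that array. Lyz2, a lysozyme of macrophages, read 10.78, 10.72 and 10.83 in wildtype and 11.51, 11.44, 11.08, 11.10 and 11.15 in null tissue. The groups did not overlap, and the difference was 0.50 ± 0.24 (SE; limma unadjusted p = 0.0604), or 0.49 without that array. Lyz1, the Paneth cell lysozyme and a near copy of Lyz2, read 12.97 to 13.75 and 13.51 to 14.03, and these copies may share signal on the array. C1qb, a complement component, differed by 0.41 ± 0.22. Antigen presentation and interferon genes were higher for 12 of 15 members and lower for 3, with a median of 0.25. Without wildtype replicate 1 the median was -0.05, with 0 members higher and 1 lower at an unadjusted p below 0.05. With all arrays the 1 of 15 at that p, against 2.8% of all genes, was Cxcl9, a chemokine induced by interferon gamma. Cxcl9 read 7.85, 9.15 and 8.32 against 10.18, 9.34, 8.69, 8.91 and 9.82, a difference of 0.93 ± 0.33 (SE; limma unadjusted p = 0.0124). It was highest in adjacent replicates 1 and 5, while adjacent replicates 3 and 4 lay below wildtype replicate 2, and without wildtype replicate 1 the difference was 0.64. Class II genes H2-Ab1, H2-Aa and H2-Eb1 differed by 0.26 to 0.37, and by 0.01 to 0.07 without that array.

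Several of the lists that were lower in null tissue by the median rested on wildtype replicate 1, while others moved little without it. Gastric surface genes had a median of -2.13, with 14 of 14 lower and 5 at an unadjusted p below 0.05 (1.53% of all genes were lower at this p). Without that array the median was -0.10, and 0 of 14 reached it. Gkn2, a gastrokine, read 14.20, 6.94 and 7.32 in wildtype and 8.95, 6.74, 5.94, 5.16 and 6.47 in null tissue, so 1 wildtype array was high and the others lay at the level of null tissue. Brunner gland and mucous neck genes had a median of -1.20 (-0.19 without it), regenerative epithelium genes -0.64 (0.20), tuft cell genes -0.38 (-0.01) and mast cell genes -0.25 (-0.04). Among the lists that moved little, neutrophil and eosinophil genes had -0.22 (-0.16 without it), with list means of 6.62 in wildtype and 6.35 in null tissue. All genes in bin 3 of 10 by signal level, which holds these means, had a median of -0.074 (-0.144 without it). Red blood cell genes had -0.23 (-0.30), over only 2 measured genes of 7 entries. Type 2 response and mucosal defense genes had -0.18 (-0.14), although some members were far higher in that array. Muc6, the Brunner gland mucin, read 13.53, 7.14 and 8.40 against 9.68, 7.07, 6.88, 6.55 and 7.76. Chil4, a chitinase-like protein of type 2 responses, read 11.88 in wildtype replicate 1 and 4.75 to 5.06 in the other 7 arrays. Duoxa2, which matures the oxidase Duox2, read 12.82 in it, 9.30 and 8.04 in the other wildtype arrays and 7.73 to 8.88 in null tissue.

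Pancreatic acinar genes had a median of -1.69, -0.50 without wildtype replicate 1 and -0.07 with a term for acinar transcripts, with 0 of 11 at an unadjusted p below 0.05. Prss2, a trypsinogen, read 13.68, 7.29 and 13.09 in wildtype and 12.75, 13.72, 7.29, 7.16 and 7.18 in null tissue. Secretory and hormone cell lists differed less. Goblet cell genes had a median of -0.07 over 9 genes (0.03 without wildtype replicate 1), Paneth cell genes 0.13 over 6 (0.45 without it) and enteroendocrine genes 0.26 over 17. Neurod1, an enteroendocrine transcription factor, was the 1 of 17 enteroendocrine genes whose groups did not overlap, against 2.12% of all genes, at 7.04, 7.30 and 7.10 against 7.75, 7.35, 7.51, 7.81 and 7.39. Tslp, an epithelial cytokine, was the 1 of 19 inflammatory cytokine genes at an unadjusted p below 0.05, against 2.8% of all genes, at -0.26 ± 0.12 (SE; limma unadjusted p = 0.0439). It lies among the dim genes.

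**Figure D5:**
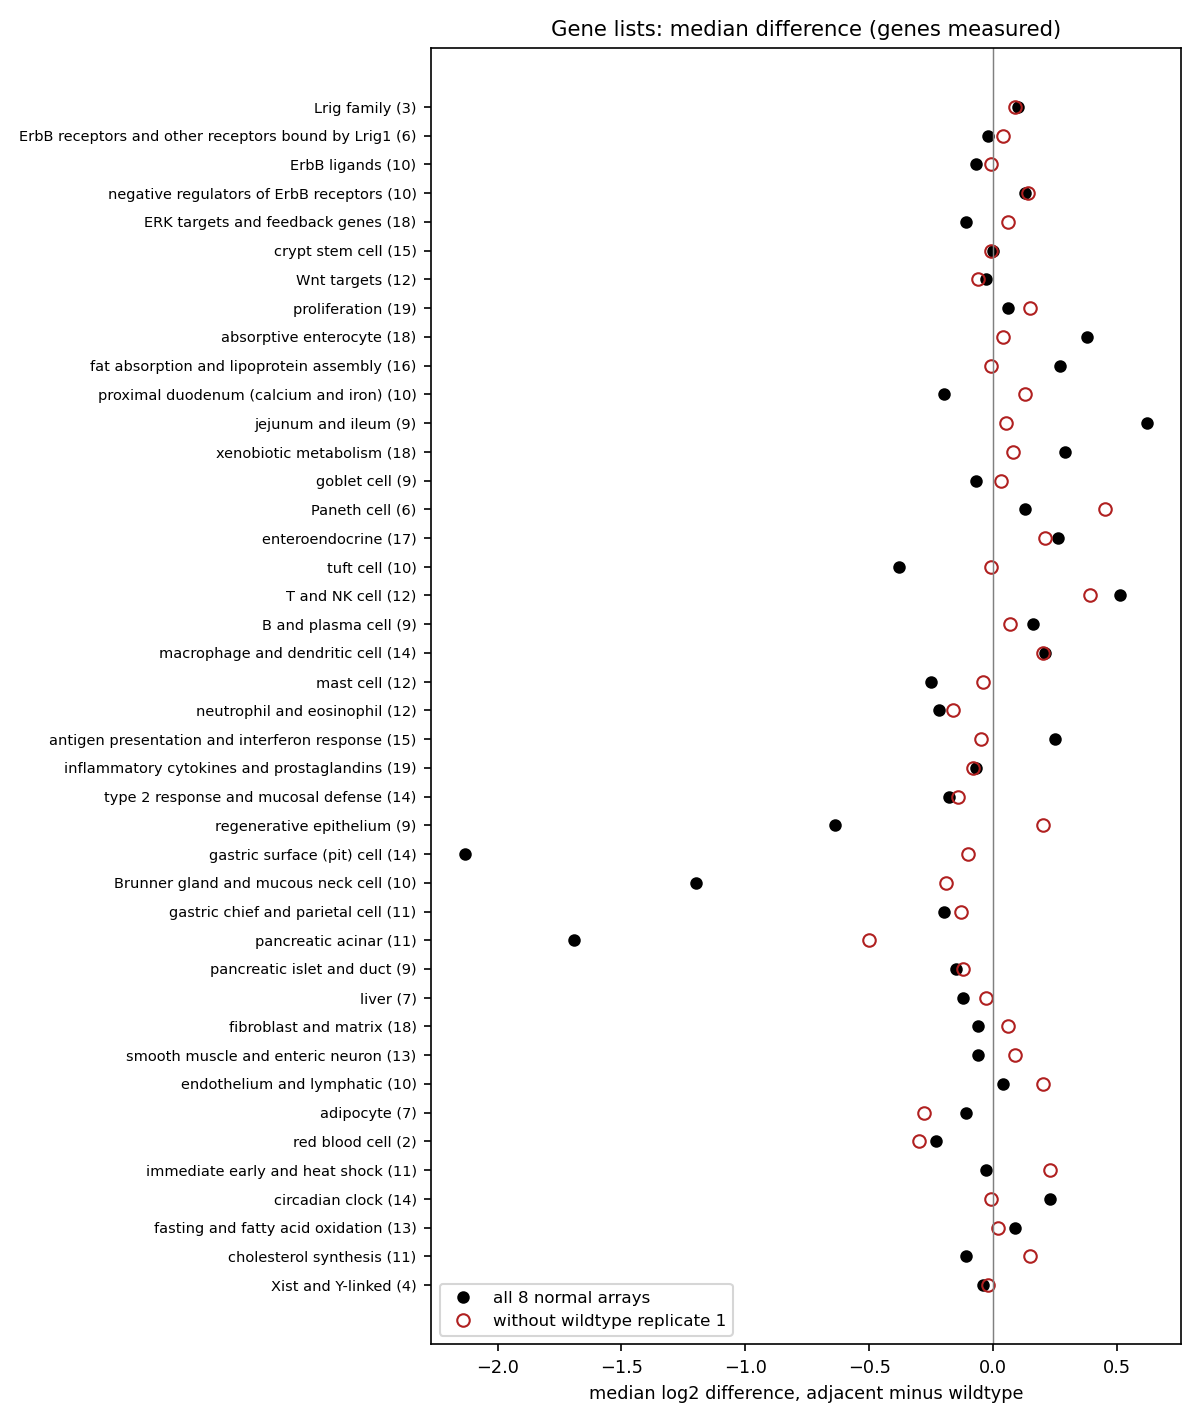
Median log2 difference of adjacent null minus wildtype tissue (horizontal axis) over the measured genes of each of the 42 lists, for all 8 arrays (filled) and without wildtype replicate 1 (open). The gastric surface, Brunner gland, acinar, jejunum and absorptive lists move toward 0 without that array. The T and NK cell list goes from 0.51 to 0.39 and the Paneth cell list from 0.13 to 0.45.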

How the data were processed

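RNA was read on Affymetrix Mouse Gene 1.0 ST arrays, which probe each transcript at many places along its length. The authors deposited 1 log2 signal for each of 35556 transcript clusters in 14 arrays (2.87 to 14.8, array medians 7.11 to 7.29). Affymetrix Expression Console 1.1 and mm9 are named per the submitters' processing notes. For background correction and normalization the method is not given in the sources used here, and no detection calls accompany the values. Per the labels, RNA was column-purified with DNase.

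From these values, clusters with a single symbol were kept and the one of highest mean used for each gene, leaving 19938 genes. Symbols came from the platform annotation, updated by GRCm38.p6 gene identifiers for 21698 of 21789 clusters. Differences were fitted with limma 3.58.1 in R 4.3.3 on group means of all 14 arrays, with mouse as a random block (correlation 0.334), because tumors and adjacent tissue share mice. Tests were two-sided and moderated, with Benjamini-Hochberg adjustment at 0.05. Replicate numbers follow the order of the samples and pair nothing. On simulated data, 82 of 100 genes changed 2-fold and 98 of 100 changed 4-fold were recovered, with 15 calls among unchanged genes. The simulation drew normal noise independently for each gene, with the same spread in every group and no outlying array. These shares therefore do not give the power of the real fit, where Lrig1 at -1.84 was not called. The number of arrays limits the precision.

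The genes, the 42 lists (533 entries, 46 without a gene in the table) and the tests were chosen with earlier results of these data known. Named genes are the Lrig family and its 20 neighbours, all ErbB receptors and ligands, up to 10 genes of smallest p in each direction whose groups did not overlap, up to 4 genes of each list, and S100g, Cybrd1 and Enpp7. The smallest-p set leaves out olfactory, vomeronasal, defensin, immunoglobulin and T cell receptor genes, and also Riken, predicted, unnamed and small RNA genes. Genes chosen after their values were seen are marked so. An array was taken to hold acinar transcripts where its acinar list mean was above 10.

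In all, 24 alternatives were tried, 2 of them chosen after seeing the data. They cover the block, the arrays fitted, moderation, array weights, normalization, the dim genes, the clusters tested, acinar transcripts, the ID letter and leaving out each array.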

Additional observations from a re-analysis of the deposited data

Results flagged for a closer look

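In the 5 adjacent null arrays, a value was marked where its gap to the nearest other array was a large share of the group's range (Dixon's rule). Of 125 values looked at, 13 were marked, and chance alone marks about 1 in 20 groups. That rate does not apply to Dbp, Arntl, Ciart, Myh11 and Adipoq, which were chosen after their values were seen. Adjacent replicate 2 stood apart in 5 of these measures. Its islet and duct list mean was 10.19, against 8.25 to 8.67 in the others, with Ins2, an insulin gene chosen after its values were seen, at 10.36. In the same array Egf read 8.82 (others 6.62 to 6.98), Erbb2 9.99 (10.51 to 10.64), Cd3d 6.48 (7.12 to 7.24) and Plcxd2 8.61 (8.11 to 8.24). Adjacent replicate 1 stood apart in the clock genes Dbp, at 8.31 (10.79 to 11.34), Arntl, at 9.26 (7.64 to 7.94), and Ciart, at 6.68 (9.11 to 9.70), and in the muscle gene Myh11, at 9.11 (10.42 to 10.89). Adjacent replicate 4 had an adipocyte list mean of 9.14, against 7.87 to 8.15, with Adipoq at 8.10 (5.48 to 6.08), and a mean over Xist and Y-linked genes of 6.19, against 6.32 to 6.37. Adjacent replicate 5 had a macrophage and dendritic cell list mean of 8.88, against 8.39 to 8.52.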

How the results depend on the processing

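The count of genes lower in null tissue was 1, Lrig1, with trended and robust moderation (-1.84), array weights (-1.99) and quantile normalization (-1.87). It was also 1, again Lrig1, with median centring (-1.83), the dimmest 25% of genes left out (-1.84) and wildtype replicate 3 left out. With only the 8 compared arrays it was 0, with Lrig1 at -1.83 and a limma adjusted p of 0.999. Over all transcript clusters it was 0 too, with a limma adjusted p of 0.145 for Lrig1. The 0.0511 of the fit reported therefore draws on the tumor arrays for the spread. Within ID letter F, which holds 1 wildtype array (replicate 1), 28 genes were higher and 148 lower, with Lrig1 at -2.29. Leaving out each array in turn gave a Lrig1 difference of -2.25 to -1.59, 0 genes higher and 0 to 1 lower, and 366 to 1745 genes at an unadjusted p below 0.05. Array weights gave 3514 such genes, and a term for acinar transcripts without wildtype replicate 1, chosen after seeing the data, gave 2508. The cause of these changes was not tested. Of 1959 values of 82 other named genes under the alternatives, 93 moved by 1 SD or more and 10 passed the threshold, all 10 within letter F. Of 1008 list medians, 44 moved by 1 SD or more. No paired analysis was possible because the wildtype and null tissues came from different mice and the replicate numbers follow only sample order. The number of arrays and the spread of the wildtype group limit the precision: the median SD over genes was 0.212 for the 3 wildtype arrays and 0.125 for replicates 2 and 3.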

Other observations

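Fat tissue genes were high in 1 array of each group. Adipoq, the adipocyte hormone adiponectin and chosen after its values were seen, read 7.27 in wildtype replicate 2 and 8.10 in adjacent replicate 4, and 5.48 to 6.08 in the other 6 arrays. Fabp4, a fatty acid carrier of adipocytes, read 9.65 and 9.77 in the same arrays and 7.85 to 8.49 in the others. Ciart, a repressor of the clock and chosen after its values were seen, read 7.65 in wildtype replicate 1 and 6.68 in adjacent replicate 1, and 8.97 to 9.70 in the other 6. Ins2 was also above the rest in wildtype replicate 3, at 8.87, and both it and adjacent replicate 2 carried acinar transcripts.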
